A study of Mus musculus with 12 samples.

Results

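Probes UCSF034_000547, UCSF034_000548, UCSF034_000552 and UCSF034_000556 gave a strong signal in adult lung epithelial cells and a weak one in the other cells of the study. They are 4 of the 2579 non-control probes on a custom microRNA array, and their serial numbers lie close together. They were chosen by name because earlier results of the same arrays placed them high in adult lung and low elsewhere. Their levels in adult lung against the other groups are therefore a description and were not tested. The tables used here pair none of the 4 probes with a microRNA name or sequence, so neither is given.

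The study measured microRNA on 12 single-colour arrays, 3 from each of 4 groups of mouse epithelial cells. Adult lung and adult mammary epithelium came from female mice of 10 weeks. Both were prepared by trypsin and collagenase digestion and repeated low-speed centrifugation, and no cell sort is named. The other groups are labelled reprogrammed lung and reprogrammed mammary, and the series title speaks of adult lineages reprogrammed in vivo under the influence of stroma. The labels give no strain, allele, time or treatment for any group. They do not say whether reprogrammed lung cells came from lung or took on a lung fate, nor whether replicates came from separate animals. P-values therefore set differences between groups against a scatter of samples that may be only technical, and 3 arrays per group limit every value. Because the probes carry no names, the epithelial label could not be checked against marker microRNAs, and blood, endothelial or stromal cells could not be looked for. Fewer cells of a type and less RNA per cell cannot be told apart in such bulk samples.

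MicroRNAs are short RNAs cut from hairpin precursors by Drosha and Dicer. Held by Argonaute proteins, they pair through a seed near their 5′ end with sites in messenger RNAs, whose translation and stability they lower. Many are made from clusters in which a single primary transcript carries several hairpins, and related family members can be similar enough to bind the same probe on an array. Their sets differ strongly between tissues and cell types. Nothing of this is known for the 4 probes, which may detect 1 microRNA or several.

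On all arrays 630 probes were well above background, and the 75th percentile of their background-subtracted signal gave the brightness of an array. It ran from 805 to 2980. Brightness was highest on the adult lung arrays, between 2210 and 2980, and lowest on the reprogrammed mammary arrays, between 805 and 863. All values below are log2 signals after scaling by this percentile, unless another scale is named. A floor of 3.42 on this scale was set near the weakest signals told from background, and a spot at or below it can still be well above background. Each probe had 6 or 7 spots per array. The file of reprogrammed lung replicate 3 lacks its header and gives processed signal to 3 significant digits.

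On the adult lung arrays all 4 probes were bright. UCSF034_000547 had values of 8.48, 8.97 and 8.80 in adult lung replicates 1, 2 and 3. On adult mammary replicates 1, 2 and 4 it stood at 3.67, 4.40 and 3.78. Reprogrammed lung replicates 1, 2 and 3 gave 3.74, 4.85 and 5.48, and reprogrammed mammary replicates 1, 2 and 4 gave 4.17, 4.44 and 5.29. Every adult lung array thus lay far above the other 9, while the remaining 3 groups overlapped.

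UCSF034_000548 read 8.54, 8.97 and 8.82 on the adult lung arrays in the same order. It gave 4.03, 4.36 and 3.86 in adult mammary cells and 3.89, 3.93 and 4.09 in reprogrammed lung cells. In reprogrammed mammary cells it gave 4.55, 4.13 and 4.91. Reprogrammed lung was its lowest group, and all 3 of its arrays lay below all 3 reprogrammed mammary arrays.

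UCSF034_000552 read 8.78, 9.10 and 8.93 in adult lung cells. Its values were 3.87, 4.55 and 4.06 for adult mammary arrays. The reprogrammed lung arrays gave 3.90, 5.39 and 5.89, and the reprogrammed mammary arrays 4.33, 4.33 and 5.19. Outside adult lung its highest value was on a reprogrammed lung array, and all 3 groups overlapped.

 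UCSF034_000556 read 8.63, 9.10 and 8.97 in adult lung cells. The adult mammary arrays gave 3.89, 4.40 and 3.96, and the reprogrammed lung arrays 3.85, 5.11 and 5.93. Reprogrammed mammary cells gave 4.69, 4.67 and 5.62. For this probe the reprogrammed mammary arrays all lay above the adult mammary arrays.

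**Figure D1:**
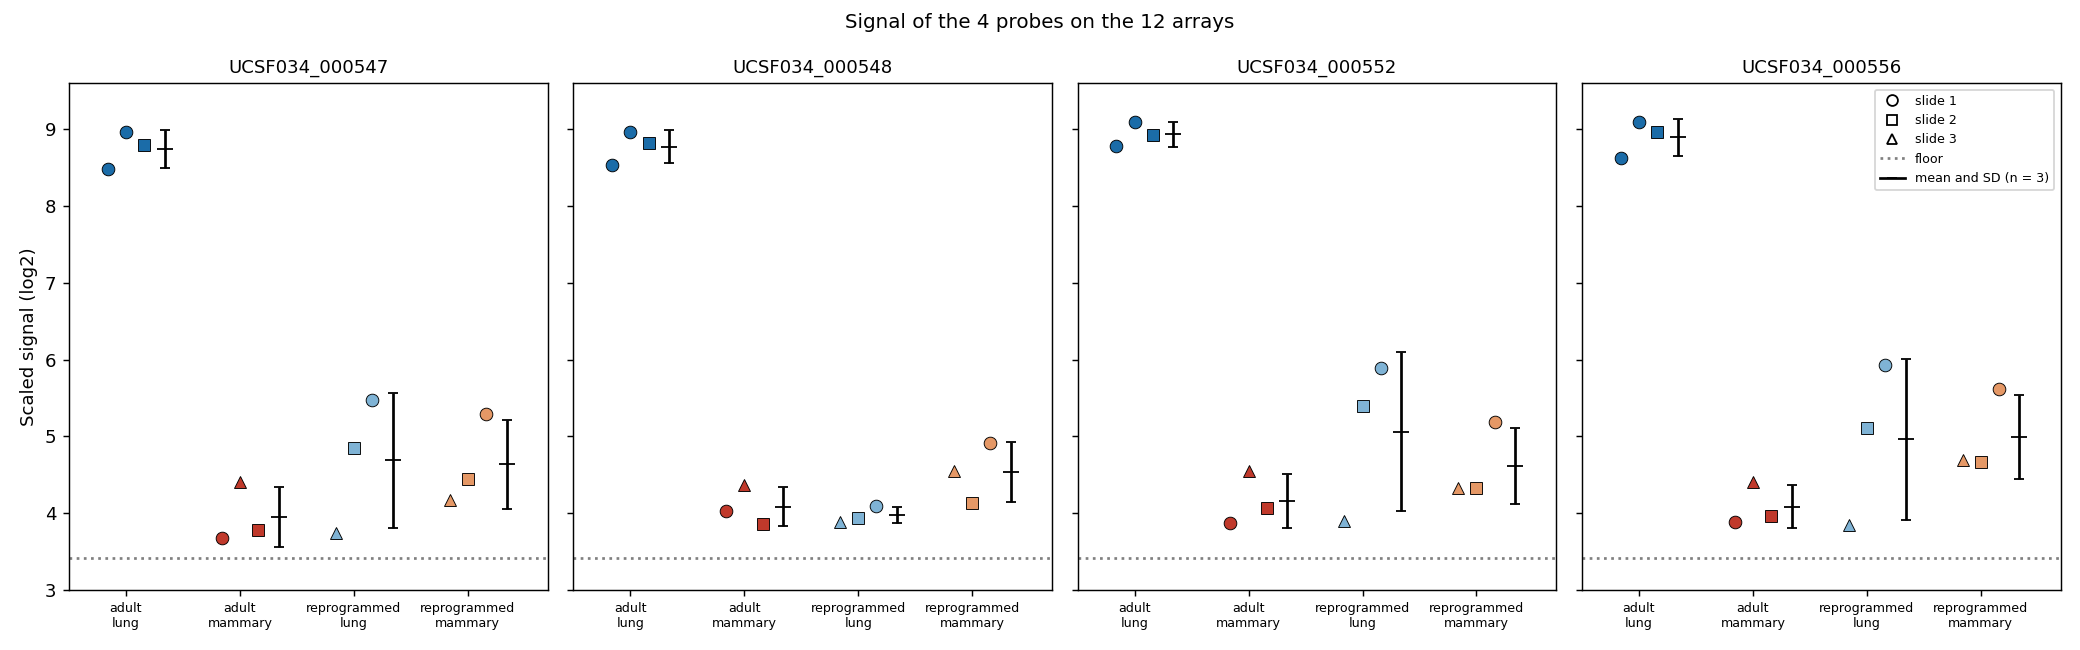
Scaled log2 signal of each probe on the 12 arrays, by group, with the slide of each array as the marker shape, the mean and SD of 3 arrays beside the points, and the floor of 3.42 as a dotted line. Adult lung arrays lie between 8.48 and 9.10 for the 4 probes, and the other 9 arrays lie between 3.67 and 5.93.

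The probes did not vanish outside adult lung. All 4 were well above background on all 12 arrays, as were 630 probes in total. Of 309 spots of these probes used, the scanner software called 307 well above background. None of the 77 used on adult lung arrays and 5 of the 232 used on the other arrays lay at or below the floor. Median spot signal before background subtraction was 587 to 1080 on adult lung arrays and 37 to 105 on the others. Local background was 17 to 21 throughout. A weak signal was thus present on every array, which goes against describing the probes as lost outside adult lung.

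Group means in adult lung were 8.75 ± 0.25 for UCSF034_000547, 8.78 ± 0.22 for UCSF034_000548, 8.94 ± 0.16 for UCSF034_000552 and 8.90 ± 0.24 for UCSF034_000556 (SD, n = 3). In adult mammary cells the means were 3.95 ± 0.39, 4.08 ± 0.26, 4.16 ± 0.35 and 4.08 ± 0.28 in that order (SD, n = 3). The signal of adult mammary cells was thus 3.55% to 3.86% of that in adult lung. The differences from adult lung, 4.69 to 4.82 on the log2 scale or 25.9-fold to 28.2-fold, hardly varied between the 4 probes. Over all 947 tested probes the median difference was 0.00. Within slide 1 the difference ran from 4.73 to 5.08 over the probes and within slide 2 from 4.87 to 5.02, and slide 3 held no adult lung array.

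In reprogrammed lung cells the levels varied more between arrays, except for UCSF034_000548. The means were 4.69 ± 0.88 for UCSF034_000547, 5.06 ± 1.03 for UCSF034_000552 and 4.96 ± 1.05 for UCSF034_000556 (SD, n = 3). These are 5.99%, 6.81% and 6.53% of the adult lung level, or differences of 4.06, 3.88 and 3.94 (log2). UCSF034_000548 stood at 3.97 ± 0.11 (SD, n = 3), 3.57% of adult lung and 28.0-fold below it. The median difference over the 4 probes was 4.00, against -0.13 over all tested probes. Within slides 1 and 2 the difference of UCSF034_000548 was 4.66 and 4.89, while that of UCSF034_000556 was 2.93 and 3.86.

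Reprogrammed mammary cells lay between 3.91 and 4.32 below adult lung on the log2 scale, 15-fold to 20-fold. The smallest difference was that of UCSF034_000556, with a level of 4.99 ± 0.54 (SD, n = 3), and the largest that of UCSF034_000552, with 4.62 ± 0.50 (SD, n = 3). The median over the 4 probes was 4.18, against -0.15 over all tested probes. On slide 1 the differences ran from 3.25 to 3.85 and on slide 2 from 4.30 to 4.69.

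For all 4 probes every adult lung array exceeded every array of each other group. Among the 947 tested probes this was so for 18.5% against adult mammary, 22.5% against reprogrammed lung and 25.2% against reprogrammed mammary cells. It held for 13.5% against all 9 arrays together. The selection of the probes fixed their count, so nothing is read from it. The distance from the lowest adult lung array to the highest other array was 3.63 for UCSF034_000548, 3.01 for UCSF034_000547, 2.89 for UCSF034_000552 and 2.70 for UCSF034_000556. Close to these values, but not among the 4, came UCSF034_001397 with 2.91, UCSF034_000546 with 2.58 and UCSF034_000551 with 2.41. The highest other array of these 3 probes was one on which they were not well above background, so their distances have no order against those of the members.

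The size of these differences depended on the scaling and on the treatment of weak signals, while adult lung was higher in every setting run. In the authors' deposited table of log2 values the median difference from adult lung over the 4 probes was 3.37 for adult mammary, 3.02 for reprogrammed lung and 3.14 for reprogrammed mammary cells. Without scaling these were 5.60, 4.71 and 5.71, and the median difference of all tested probes was 0.68, 0.39 and 1.00 in place of 0.00, -0.13 and -0.15. Normexp background correction was run here with a chosen offset of 50 added to every signal, which weighs most on weak ones. After it the median differences over the 4 probes were 2.69, 2.48 and 1.97. The median over all tested probes was then -0.44, -0.50 and -0.95. The percentages moved likewise. Adult mammary cells had 9.26% to 10.0% of the adult lung signal in the authors' deposited table, 15.0% to 16.1% after normexp and 2.02% to 2.20% without scaling. The highest value on reprogrammed lung replicate 3, 12.8%, was 19.5%, 22.4% and 8.44% in these settings. The folds and percentages given here thus hold for this processing only.

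The signal that was left on the other 9 arrays was not spread evenly over them. Averaged over the 4 probes, reprogrammed lung replicate 3 had the most, 8.87% of the adult lung level, followed by reprogrammed mammary replicate 4 with 8.30% and reprogrammed lung replicate 2 with 6.16%. The remaining 6 arrays had 3.13% to 4.72%, and the lowest of all was reprogrammed lung replicate 1. Reprogrammed lung therefore contained the highest and the lowest array of the 9. The highest pair shared slide 1 with adult lung replicates 1 and 2. Adult mammary replicate 1, on the same slide, had 3.17%, and reprogrammed lung replicate 2 was on slide 2. The part of the slide in this order was not tested. Array brightness was 1630 and 805 on the 2 arrays with the most signal, and 1650 on the array with the least. Its part in the order was not tested either.

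**Figure D2:**
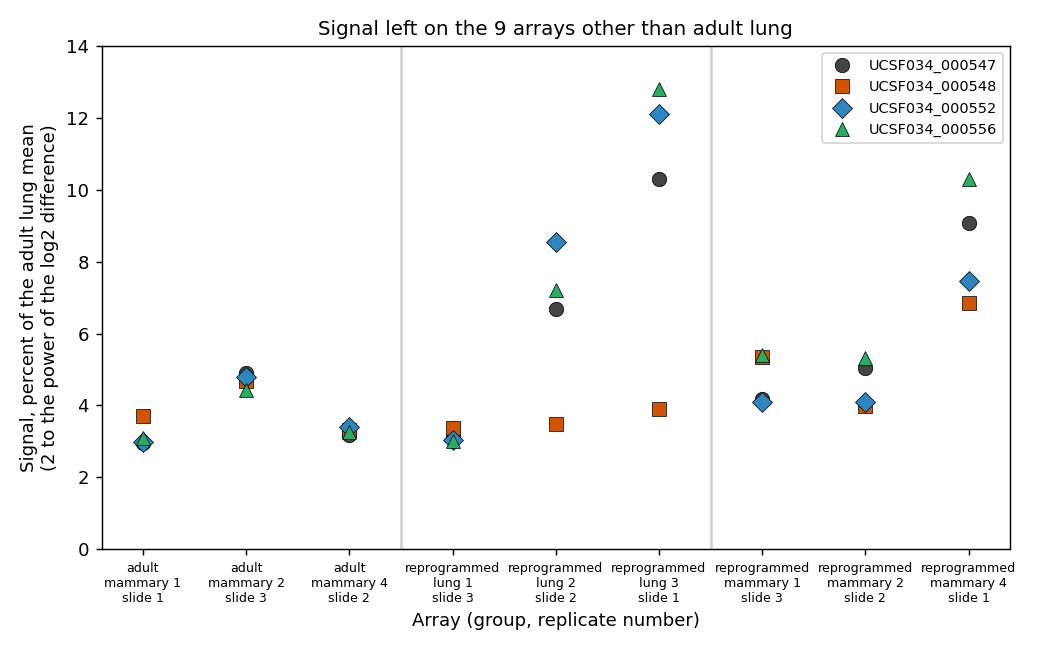
Signal of each probe on the 9 arrays other than adult lung, as a percent of the probe's adult lung mean, with the array's group, replicate number and slide on the x axis. UCSF034_000548 stays between 3.31% and 6.84%, while UCSF034_000556 reaches 12.8% on reprogrammed lung replicate 3.

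UCSF034_000548 parted from the other 3 probes in reprogrammed lung cells. On reprogrammed lung replicate 3 the level was 10.3% of adult lung for UCSF034_000547, 12.1% for UCSF034_000552 and 12.8% for UCSF034_000556, but 3.89% for UCSF034_000548. On replicate 2 it was 6.69%, 8.56% and 7.22% against 3.48%. On replicate 1 all 4 probes lay between 3.01% and 3.37%. This split of the probes was noticed in the values and was not tested.

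The mean of the other 3 probes minus UCSF034_000548 was 0.09, 0.09 and 0.08 on the adult lung arrays. It was -0.06, 1.19 and 1.67 on reprogrammed lung replicates 1, 2 and 3. On adult mammary arrays it ran from -0.22 to 0.09, and on reprogrammed mammary replicates 1, 2 and 4 it was -0.16, 0.35 and 0.46. In the authors' deposited table the same quantity was 0.51 and 1.00 on reprogrammed lung replicates 2 and 3, and 0.00 on replicate 1. On the scale used here, though not in the authors' deposited table, this difference was over 1 on 2 of the 3 reprogrammed lung arrays. It was under 0.5 on the other 10 arrays. The spread between spots of a probe was 0.01 to 0.14 on adult lung arrays and 0.10 to 0.39 on the others (SD of log2 signal over spots).

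Across the 9 arrays other than adult lung, UCSF034_000547, UCSF034_000552 and UCSF034_000556 rose and fell together, with Pearson's r of 0.94 to 0.98 and Spearman's rho of 0.90 to 0.97 over the 3 pairs. For each pair r was also taken without the 2 arrays farthest from the median of the lower-numbered probe, which were not the same arrays for every pair. It was 0.93 to 0.95 over 7 arrays. UCSF034_000548 correlated with each of the other 3 probes at 0.25 to 0.48 (rho 0.37 to 0.53), and at 0.19 to 0.25 over 7 arrays. In its pairs with UCSF034_000552 and UCSF034_000556 its own values set the arrays left out, and reprogrammed lung replicates 2 and 3 stayed in. The 2 ranges over 7 arrays are therefore not comparable. These values describe 9 arrays that share their scaling, and adult lung arrays were left out because they form a separate cluster. The spots of the 4 probes were scattered over the array, in rows 15 to 177 of 192, and spots of different members were never closer than 3 rows or columns.

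The choice of the probes set adult lung against the rest and did not order the rest, so the other 3 groups were compared with a test. It did ask for a low signal in all 3, which limits how far they could differ, and nothing is read from a count of 0 members. A linear model (limma) was fitted to all 947 probes that were well above background on at least 3 arrays. None of the 4 probes passed an adjusted p of 0.05 in any of these 3 comparisons. The probes passed the filter on weak signals in every group, not through adult lung alone.

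Between reprogrammed lung and adult mammary cells, 6.02% of all tested probes differed and 0 of the 4 members did (limma). At an unadjusted p under 0.05 there were 208 of the 947 tested probes and 0 members (limma). UCSF034_000552 was 0.90 ± 0.46 (SE) higher in reprogrammed lung, with a 95% interval of -0.13 to 1.93 and an adjusted p of 0.307 in limma. UCSF034_000556 gave 0.88 ± 0.47 (SE, limma adjusted p = 0.339) and UCSF034_000547 gave 0.74 ± 0.44 (SE, limma adjusted p = 0.398). UCSF034_000548 gave -0.11 ± 0.21 (SE), with an interval of -0.59 to 0.36. No member's reprogrammed lung arrays all lay above its adult mammary arrays, as was so for 15.9% of all tested probes. For the first 3 probes the intervals include 0 and reach 1.72 to 1.94, so neither no difference nor a difference of 3-fold is excluded.

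These differences changed from slide to slide. Each of the 3 slides carried 1 array of adult mammary, reprogrammed lung and reprogrammed mammary cells. On slides 1, 2 and 3 reprogrammed lung minus adult mammary was 2.02, 1.33 and -0.65 for UCSF034_000552, and 2.04, 1.15 and -0.56 for UCSF034_000556. The slide 3 array was reprogrammed lung replicate 1, the lowest of its group. Without it the differences were 1.48 for UCSF034_000552 and 1.44 for UCSF034_000556, and both passed the threshold in limma (adjusted p = 0.0366 and 0.0453). Of all tested probes, 69 passed in that setting. Over all 19 other settings the adjusted p of UCSF034_000552 ran from 0.0366 to 0.981 and that of UCSF034_000556 from 0.0453 to 1.00 (limma). Without reprogrammed lung replicate 1 UCSF034_000547 did not pass (1.21, limma adjusted p = 0.0773).

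Reprogrammed mammary cells had higher means than adult mammary cells for all 4 probes, by 0.45 to 0.91, with no difference past the threshold. Of all tested probes 10.1% differed in this comparison (limma), and 0 of the 4 members did. At an unadjusted p under 0.05 there were 241 of the 947 tested probes and 0 members (limma). The nearest was UCSF034_000548, with 0.45 ± 0.21 (SE), an interval of -0.03 to 0.92 and an adjusted p of 0.219 in limma. UCSF034_000556 had a larger difference, 0.91 ± 0.47 (SE, limma adjusted p = 0.264), with values of 1.73, 0.71 and 0.28 on slides 1, 2 and 3. It was the only one of the 4 whose arrays did not overlap here, as was the case, with reprogrammed mammary higher, for 17.8% of all tested probes. Without scaling between arrays 3 of the 4 differences turned negative, the lowest being -0.27, where all tested probes had a median of -0.58. After normexp background correction all 4 passed the threshold, with 0.66 to 0.77 and adjusted p from 0.00239 to 0.0121 (limma). In that setting 477 of the 947 tested probes passed, and all tested probes had a median of 0.43. Over all 19 other settings the adjusted p of the 4 members reached 0.717 to 1.00 at the highest (limma).

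Between the reprogrammed groups, 0.211% of all tested probes differed (limma), and 0 of the 4 members. UCSF034_000548 was 0.56 ± 0.21 (SE) higher in reprogrammed mammary than in reprogrammed lung cells, with an interval of 0.09 to 1.03, an unadjusted p of 0.0253 and an adjusted p of 0.197 in limma. It was the single member at an unadjusted p under 0.05, where 183 of the 947 tested probes were (limma). On slides 1, 2 and 3 it gave 0.81, 0.20 and 0.67. Its arrays did not overlap, as for 10.1% of tested probes with reprogrammed mammary higher. The other 3 members gave -0.44, -0.06 and 0.03, with intervals from -1.48 at the lowest to 1.09 at the highest. Without scaling all 4 differences were negative, -0.26 for UCSF034_000548 and -1.27 for UCSF034_000552. The latter passed the threshold (limma adjusted p = 0.0437, with 0.0437 to 0.989 over 19 settings). Without scaling 347 of the 947 tested probes passed, and all tested probes had a median of -0.69. After normexp 3 members were higher in reprogrammed mammary cells past the threshold (limma). In that setting 468 of the 947 tested probes passed, and all tested probes had a median of 0.48.

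**Figure D3:**
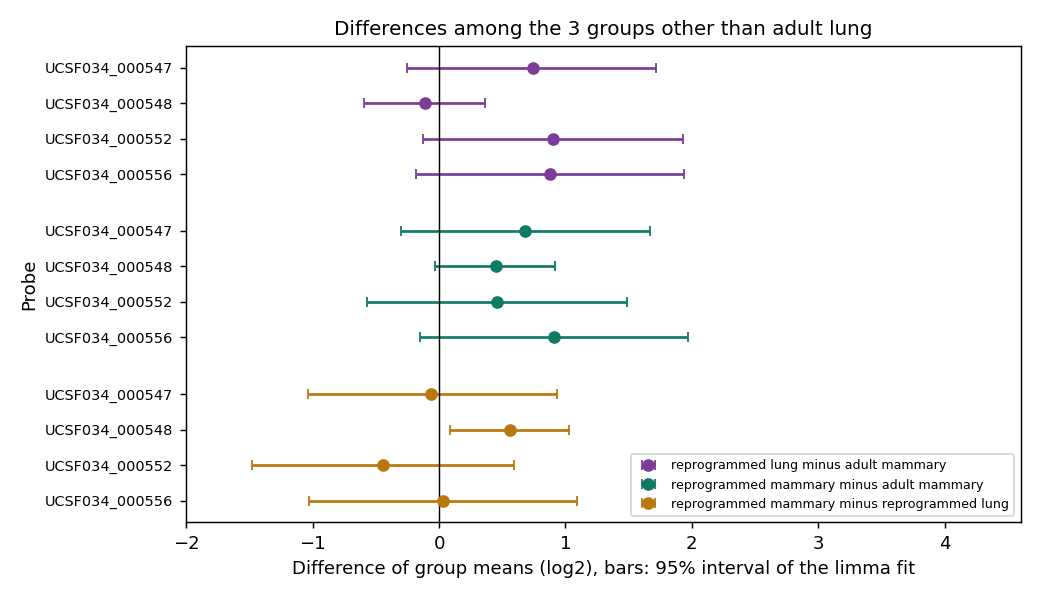
Difference of group means for each probe in the 3 comparisons without adult lung (log2, points) with the 95% interval of the limma fit (bars). The interval of UCSF034_000548 in reprogrammed mammary minus reprogrammed lung, 0.09 to 1.03, is the single one that leaves out 0, before adjustment over 947 probes.

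The levels outside adult lung thus came in different orders. For UCSF034_000552 the order of means was reprogrammed lung (5.06), reprogrammed mammary (4.62) and adult mammary (4.16), and neighbouring groups overlapped. For UCSF034_000547 (4.69 and 4.63) and UCSF034_000556 (4.96 and 4.99) reprogrammed lung and reprogrammed mammary differed by far less than their spread, and both means lay above adult mammary (3.95 and 4.08). For UCSF034_000548 reprogrammed mammary (4.53) came first, then adult mammary (4.08) and reprogrammed lung (3.97), and neighbouring groups overlapped. These orders depend on the processing: after normexp reprogrammed mammary was above reprogrammed lung for all 4 probes, and without scaling below it for all 4.

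The probes numbered next to these 4 were read on the same arrays. From 10 numbers below the lowest to 10 above the highest, serial numbers 537 to 566, the array carried 30 probes, 26 of them not members. Of those, 12 were well above background on at least 3 arrays and 13 on no array. The stretch from UCSF034_000546 to UCSF034_000556, bounded after its values were seen, held 11 probes, of which 10 were well above background on all 3 adult lung arrays. The exception was UCSF034_000553, which no array detected above background. Of the 19 probes of the window outside that stretch, 4 were well above background on all adult lung arrays. Of all 2579 non-control probes, 851 to 1006 were well above background on each adult lung array. Since the stretch was bounded by its values, nothing is read from its count.

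Of the 6 other probes of the stretch detected in adult lung, 4 were detected on adult lung arrays only. Of all 2579 non-control probes, 23 were well above background on all 3 adult lung arrays and none of the other 9. UCSF034_000546 read 6.22, 6.46 and 6.44 in adult lung and was not well above background on any other array. It was at least 7.72-fold higher in adult lung than in adult mammary cells, at least 7.73-fold higher than in reprogrammed lung and at least 5.31-fold higher than in reprogrammed mammary cells. Such a bound sets the adult lung mean against the lowest signal told from background on the dim arrays, or the probe's own signal where that was higher. UCSF034_000554 read 5.58, 5.95 and 5.79 in adult lung and was not detected elsewhere, with bounds of 5.11-fold, 5.11-fold and 3.52-fold in the same order.

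UCSF034_000551 read 6.48, 6.66 and 6.67 in adult lung, at least 9.07-fold above adult mammary cells. Outside adult lung it was well above background on reprogrammed lung replicate 3 alone, at 3.83, and its highest other value was 4.07 on reprogrammed mammary replicate 4, where it was not well above background. Those are also the arrays with the highest average of the 4 members outside adult lung, although UCSF034_000548 was low on the former. UCSF034_000549, with a mean of 4.00 ± 0.45 in adult lung (SD, n = 3), UCSF034_000550, with 3.52 ± 0.16, and UCSF034_000555, with 3.79 ± 0.05, lay near the floor in adult lung too.

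Outside the stretch, UCSF034_000543 and UCSF034_000544 were bright on all 12 arrays, with adult lung means of 9.42 ± 0.20 and 9.39 ± 0.22 (SD, n = 3). Their highest arrays were not adult lung but reprogrammed lung replicate 3, at 10.48 and 10.50, the array on which 3 of the members had their highest value outside adult lung. UCSF034_000545, next below the stretch, had an adult lung mean of 3.72 ± 0.27 and was well above background on all 3 adult lung arrays and 1 other, like UCSF034_000555 inside it. The adult lung mean of UCSF034_000557 was 5.26 ± 0.07, with other arrays from 4.02 to 6.08. UCSF034_000538 and UCSF034_000540, well above background on 3 and 5 arrays, were at the floor on all adult lung arrays. Each was still called well above background on 2 of those.

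**Figure D4:**
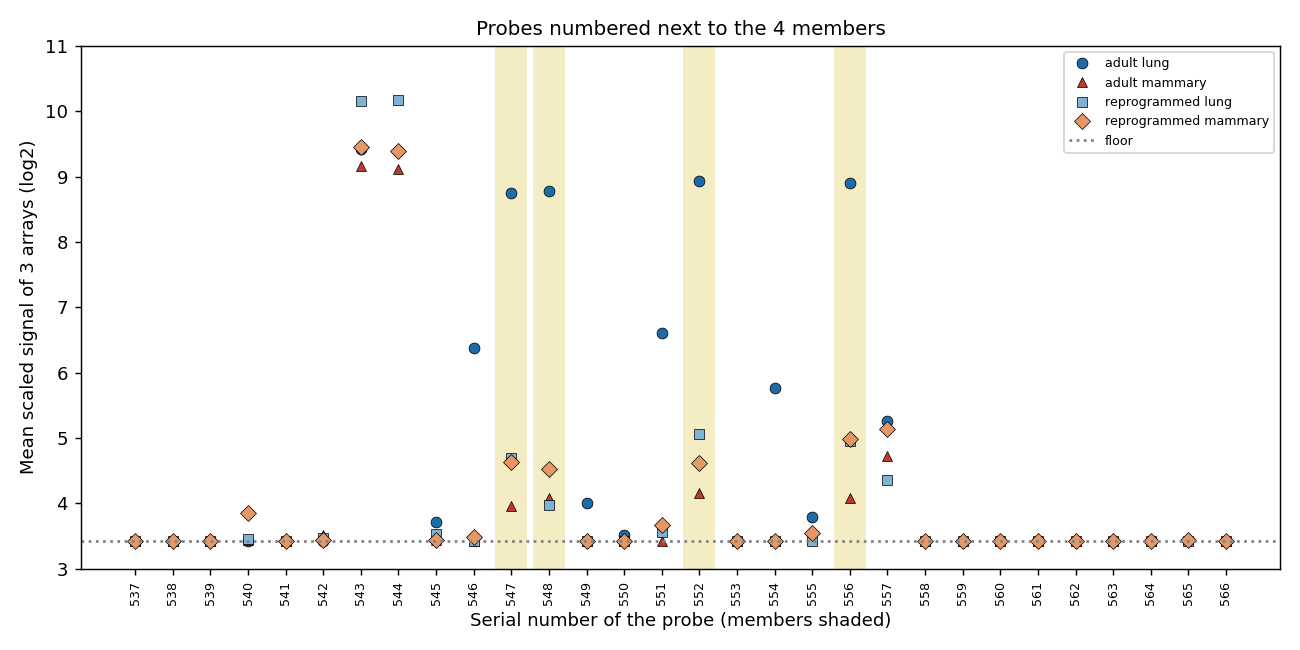
Mean scaled log2 signal of 3 arrays per group for the 30 probes numbered 537 to 566, with the 4 members shaded and the floor dotted. Adult lung stands above the other groups at the 4 members and at UCSF034_000546, UCSF034_000551 and UCSF034_000554, while UCSF034_000543 and UCSF034_000544 are bright in every group. Levels of different probes are not comparable.

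Likeness of pattern was also measured without regard to number, as the root mean square difference over the 12 arrays between a probe and the mean of the 4 members, each centred on its own mean. The nearest of the other tested probes were UCSF034_000551 (0.66), UCSF034_001397 (0.70), UCSF034_000546 (0.76), UCSF034_001138 (0.96) and UCSF034_000803 (0.98), against a median of 2.04 over tested probes. UCSF034_000551 and UCSF034_000546 lay inside the numbered stretch. Its lower bound was set at UCSF034_000546 after the values were seen, so nothing is read from their number. Each member set against the mean of the other 3 gave 0.14 for UCSF034_000547, 0.24 for UCSF034_000556, 0.28 for UCSF034_000552 and 0.54 for UCSF034_000548.

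UCSF034_001397 read 6.57 ± 0.22 in adult lung (SD, n = 3) and was at the floor on the other 9 arrays. UCSF034_001138 read 7.70 ± 0.24 in adult lung, and among the other arrays reached 6.36 on adult mammary replicate 2, where the 4 members read 4.36 to 4.55. UCSF034_000803 was detected on all 12 arrays, at 7.01 ± 0.11 in adult lung and 4.17 to 5.04 on the others. It lay 2.35 above their mean in adult lung, where the members lay 4.22 to 4.58 above it. On reprogrammed lung replicate 3 UCSF034_000803 read 4.73, near its median of 4.71 over the 9 arrays, while 3 members had their highest value outside adult lung there.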

How the data were processed

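Cy3-labelled microRNA was hybridised to single-colour Agilent arrays, 1 sample per array. Spot intensity in the deposited scanner files is linear and was background-subtracted by Agilent Feature Extraction (version 10.5.1.1 and array design 023723 per the file headers, version 10.1 per the submitters' processing notes). The authors' deposited value table holds log2 values of 2270 probes, and its scaling and centring are not given in the sources used here. It was used as an alternative. There were 0 columns of other samples.

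No spot was saturated (0), and 164 to 345 outlier spots of each array were dropped. Each array's processed signal was scaled to the 75th percentile of the 630 probes that all arrays detected. It was then floored at 10.7 (3.42 in log2), the median of the 5th percentiles that the arrays had for detected spots, logged and averaged over spots. A probe was well above background where more than 0.5 of its spots were. Tests used limma 3.58.1 in R 4.3.3 with 4 group means, no block, 8 residual and 1.47 prior degrees of freedom, and Benjamini-Hochberg adjustment over 947 probes. The fit was tested on simulated data. Files were read with the R packages jsonlite 2.0.0 and data.table (version 1.17.8), and Python 3.11.15 drew the plots through pandas 2.3.3 and matplotlib 3.10.9. Slides were read from the array identifiers.

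The members and lists were chosen with earlier results of these data known. Named probes were the 4 members, their numbered neighbours well above background on at least 3 arrays, and the 5 nearest in pattern. UCSF034_000553 was added after its values were seen. Lists of marker microRNAs could not be matched, since 0 probes had a name in the tables used. Alternatives were other scalings, floors, background corrections, filters and blocks, the authors' table, and leaving out each array.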

Additional observations from a re-analysis of the deposited data

How the results depend on the processing

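The direction of adult lung against each other group held for the 4 probes in all 17 other settings run. The median difference from adult lung over the 4 probes (4.79 for adult mammary, 4.00 for reprogrammed lung and 4.18 for reprogrammed mammary) moved by more than the replicate spread under 3 settings. It was 5.60, 4.71 and 5.71 with no scaling, 2.69, 2.48 and 1.97 after normexp and 3.37, 3.02 and 3.14 in the authors' table. Leaving out each array gave 4.66 to 4.98, 3.48 to 4.44 and 4.03 to 4.44. Normexp was run on median spot signal, a choice made after seeing the files, which give no mean spot signal. Members past the threshold (limma) were 0 to 2 of 4 for reprogrammed lung against adult mammary when each array was left out, 2 without reprogrammed lung replicate 1. For reprogrammed against adult mammary they were 4 after normexp, and between the reprogrammed groups 1 with no scaling and 3 after normexp. Of all tested probes, 69 passed for reprogrammed lung against adult mammary without reprogrammed lung replicate 1. After normexp 477 passed for reprogrammed against adult mammary. Between the reprogrammed groups 347 passed with no scaling and 468 after normexp. In the last of these settings UCSF034_000547 turned from -0.06 to 0.58 (limma adjusted p = 0.0169). The cause was not tested.

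Counts over all tested probes moved more. Reprogrammed lung against adult mammary (57) gave 0 without reprogrammed lung replicate 2, adult mammary replicate 1 or adult mammary replicate 2, 10 with slide as a block, and at most 70. Reprogrammed against adult mammary (96) ran from 0 with only the 6 arrays compared to 477 after normexp, and the reprogrammed groups (2) from 0 to 468. Correlations of 14 same-numbered pairs of arrays ran from -0.45 to 0.27, and those of 40 differently numbered pairs from -0.65 to 0.63. With so few arrays per group, these values cannot tell whether the replicate numbers pair the arrays. With the replicate block the medians were 4.69, 4.00 and 4.13, 0 members were called in each comparison, and the counts over all tested probes were 46, 49 and 2. Weak signal over background limits every level outside adult lung.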
